A study of Mus musculus with 12 samples.

Results

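Iron and heme handling was followed through 10 mouse genes, selected by symbol: Hmox1, Fth1, Ftl1, Tfrc, Slc40a1, Slc11a1, Slc11a2, Steap4, Cp and Trf. All 10 were found among the 32285 genes of a retina count table and the 55401 genes of a count table of cultured cells, and all 10 passed the low-count filter in both. The 12 libraries came from wild-type (WT) mouse samples in 4 groups of 3. In the retina groups the optic nerve had been crushed (optic nerve crush, ONC) and the sample was taken at day 1, with either phosphate-buffered saline (ONC+PBS) or small extracellular vesicles of mesenchymal stem cells (ONC+i.o.MSC.sEV, where the labels do not spell out i.o.). In the culture groups, cells labelled brain microvascular pericytes (P4) received PBS or MSC.sEV for 12 hours. All retina libraries therefore carry the crush, and no uncrushed retina was used here.

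Retina libraries totalled 15580024 to 16842926 counts and culture libraries 33001248 to 37954077. Levels are in CPM (a gene's counts relative to the TMM-scaled library total), and 3 counts in 1 library correspond to 0.18 to 0.196 CPM in the retina and 0.0778 to 0.0895 CPM in the cultures. Retina columns carry short names that were assigned to PBS and vesicles by inference, so each retina direction rests on that reading, and library numbers are column numbers. Nothing in the labels says that replicate libraries are separate animals or cultures, so p-values measure only the spread between these libraries, which may be technical. Rod markers summed to between 66000 and 102000 CPM in every retina library. Lens markers stood apart in retina PBS library 1 (0.631% of counts) and in vesicle libraries 1 and 2 (1.84% and 7.11%), against at most 0.0662% in the other retina libraries. In the cultures the mural markers Acta2 (558 to 600 CPM), Pdgfrb (56.2 to 74.1 CPM) and Notch3 (17.3 to 26.1 CPM) were present. Rgs5 lay between 0.0778 and 1.35 CPM, and Kcnj8 and Abcc9 were at or near 0. The 12 mural markers summed to 674 to 718 CPM, with 4 under 1 CPM on average. The 8 astrocyte markers, with Aqp4 at 463 to 642 CPM and Gfap at 192 to 221 CPM, summed to 1580 to 1660 CPM. Fibroblast markers summed to 1710 to 2000 CPM and oligodendrocyte-lineage markers to 421 to 579 CPM. The markers thus bear out the pericyte label only in part, and the cultures are called pericyte-labelled cells below.

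Cells take up iron bound to transferrin through the transferrin receptor, reduce it in endosomes and move it to the cytosol through divalent metal transporters. Surplus iron is stored in ferritin, a shell of heavy and light chains, and leaves the cell through ferroportin with the help of a ferroxidase. Heme oxygenase 1 opens the heme ring and releases its iron. In the retina, iron is needed by photoreceptors and pigment epithelium, and free iron promotes oxidative damage.

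Iron also acts on several of these mRNAs through the iron-responsive element, a hairpin bound by iron regulatory proteins. In a 5′ UTR it blocks translation when iron is scarce, and in the 3′ UTR of the transferrin receptor mRNA it protects the mRNA from decay. These hairpins are shown because ferritin and Tfrc mRNA are read out below, and a count of mRNA does not see translation. A search of the GENCODE transcripts (GRCm38) for a bulged C, a 5-base stem, the loop CAGTGN and a pairing stem found a match in 4 of the 10 genes, against 1.01% of 21877 protein-coding gene names. The search allowed no unpaired base or further bulge in the stem. A gene without a match, such as Slc11a2, may therefore still carry a variant of the hairpin. The matches lie in exon 1 of Fth1 (chr19:9982732-9982761, plus strand), Ftl1 (chr7:45459778-45459807, minus strand) and Slc40a1 (chr1:45925464-45925493, minus strand), all in the 5′ UTR. In Tfrc, 4 lie in the 3′ UTR in exon 19 (chr16:32631219-32631248, chr16:32631598-32631627, chr16:32631663-32631692 and chr16:32631710-32631739, plus strand). Each is given below, 5′ to 3′, with the loop in capitals.
Fth1: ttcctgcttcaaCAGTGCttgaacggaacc
Ftl1: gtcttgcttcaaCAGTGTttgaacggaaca
Slc40a1: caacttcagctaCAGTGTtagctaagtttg
Tfrc, the first: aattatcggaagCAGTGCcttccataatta
Tfrc, the second: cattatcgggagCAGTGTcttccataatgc
Tfrc, the third: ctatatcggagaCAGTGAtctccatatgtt
Tfrc, the fourth: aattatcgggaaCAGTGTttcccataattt

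With vesicles, Hmox1, Fth1, Slc11a1, Steap4 and Cp were higher in the crushed retina, and Fth1, Slc11a2, Steap4 and Cp were higher in the pericyte-labelled cells. In the retina 5 of the 10 genes were called higher and 0 lower by edgeR at an adjusted p under 0.05, where 15.9% of all 15440 genes tested were called, 10.7% higher and 5.19% lower. In the pericyte-labelled cells 4 of the 10 were called higher and 0 lower, against 19.8% of 16975 genes called, 10.9% higher and 8.9% lower. Those shares are 1855 and 1510 genes, and with library totals only, without TMM, the split over all genes was 1512 higher and 2050 lower. At an unadjusted p under 0.05, 7 were higher and 1 lower in the retina and 5 higher and 0 lower in the cultures, and DESeq2 called 5 and 4, all higher. The median log2 fold change of the 10 genes, vesicles minus PBS, was 1.19 in the retina and 0.31 in the cultures, beside -0.02 and 0.00 over all genes tested. Fth1, Steap4 and Cp were the 3 called in both tables. In bulk RNA, more cells of a type and more RNA per cell cannot be told apart. Log2 fold changes below are given ± SE, and levels as mean ± SD (n = 3 libraries per group).

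**Figure D1:**
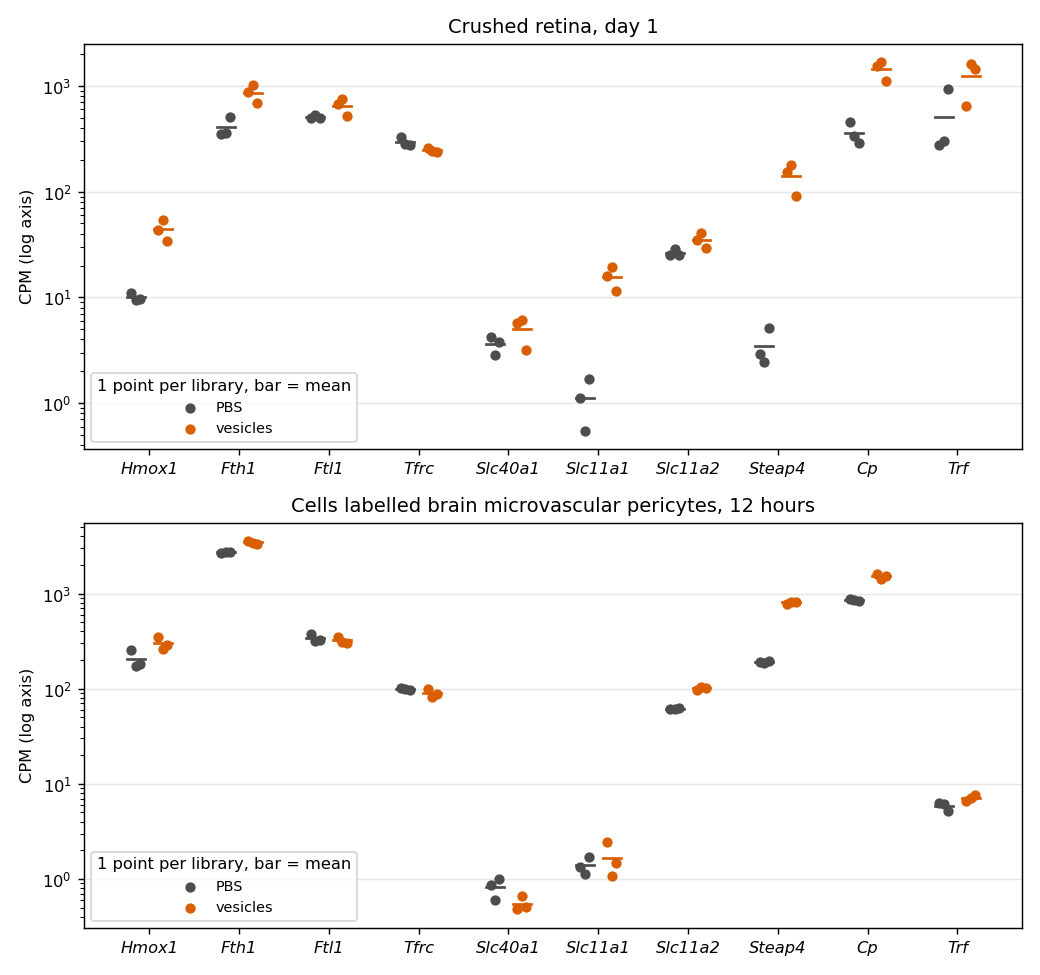
Level of each of the 10 genes in CPM on a log axis, 1 point per library, with a bar at each group mean, for PBS and vesicles in the crushed retina and in the pericyte-labelled cells. Steap4 and Slc11a1 show the widest separation in the retina, while the Trf points of the retina groups overlap.

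Hmox1 (ENSMUSG00000005413), the inducible heme oxygenase, stood at 11.1, 9.42 and 9.67 CPM in the retina PBS libraries and at 43.4, 54.0 and 34.3 CPM in the vesicle libraries. The groups did not overlap. The rise from 10.1 ± 0.90 to 43.9 ± 9.84 CPM gave a log2 fold change of 2.12 ± 0.18 (95% interval 1.73 to 2.52, adjusted p = 0.00012), a 4.36-fold difference. In the cultures Hmox1 was at 256, 174 and 182 CPM with PBS and 349, 264 and 290 CPM with vesicles. The highest PBS library lay just under the lowest vesicle library, and the log2 fold change of 0.56 ± 0.20 (95% interval 0.04 to 1.09) was not called (adjusted p = 0.14). This outcome turned on PBS replicate 1, without which the value was 0.76 with adjusted p = 2.39e-06. Without robust estimation of the spread it was also called (0.56, adjusted p = 0.00153), and DESeq2 did not call it. Hmox2, the constitutive heme oxygenase, lay between 47.3 and 55.9 CPM in all 6 retina libraries.

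Fth1 (ENSMUSG00000024661) encodes the ferritin heavy chain, which oxidises iron as it enters the shell. Retina PBS libraries held 354, 358 and 506 CPM and vesicle libraries 872, 1020 and 696 CPM, with no overlap. The log2 fold change was 1.09 ± 0.18 (95% interval 0.67 to 1.5, adjusted p = 0.0054), a 2.12-fold rise. Without the lens-richest library of each group it was 0.87 with adjusted p = 0.0526, in a fit of 2 against 2 libraries, while the call was kept with any 1 library left out (adjusted p at most 0.0328). In the cultures Fth1 went from 2668, 2707 and 2742 CPM to 3557, 3431 and 3343 CPM. These groups were well apart although the rise was small (1.27-fold, log2 fold change 0.35 ± 0.06, adjusted p = 9.8e-05).

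Ftl1 (ENSMUSG00000050708), the ferritin light chain, was at 498, 534 and 497 CPM in the retina with PBS and at 676, 759 and 520 CPM with vesicles. Vesicle library 3 lay within the PBS range, and the log2 fold change of 0.36 ± 0.14 was not called (adjusted p = 0.11). Without that library it was 0.49 and called (adjusted p = 0.0131). In the cultures Ftl1 lay at 371, 318 and 325 CPM with PBS and 353, 313 and 299 CPM with vesicles, a log2 fold change of -0.07 ± 0.07 (95% interval -0.22 to 0.07, adjusted p = 0.56), and the groups overlapped. Ferritin genes have many near-identical processed copies, so reads shared with them are uncertain, and the copy Ftl1-ps1 was listed at 1.02 to 2.80 CPM over both tables.

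The heavy to light chain ratio is known to differ between tissues, so the ratio of Fth1 to Ftl1 CPM was formed in each library. It was 0.712, 0.672 and 1.02 with PBS and 1.29, 1.34 and 1.34 with vesicles in the retina. The cultures gave 7.19, 8.50 and 8.45 with PBS and 10.1, 11.0 and 11.2 with vesicles. In both tables every vesicle library lay above every PBS library. Fth1 alone already set the groups apart in both tables, so the ratio is no support separate from the Fth1 values. The 2-sided exact permutation p was 0.1 in each, the smallest that 3 against 3 libraries can give, and 4 ratios were tested in all.

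Trf (ENSMUSG00000032554), transferrin, the carrier of iron in plasma and eye fluids, varied widely within the retina groups. It was at 276, 301 and 939 CPM with PBS and 642, 1610 and 1444 CPM with vesicles. PBS library 3 lay above vesicle library 1, and the log2 fold change of 1.29 ± 0.69 (95% interval -0.54 to 3.11) was not called (adjusted p = 0.30). Without PBS library 3 it was 2.09 and was called (adjusted p = 0.0487). Of the 9 pigment epithelium markers, Ttr, Rpe65, Rdh5 and Lrat were also high in PBS library 3 and lower in vesicle library 1 than in the other vesicle libraries. Ttr was at 191, 445 and 946 CPM with PBS and 620, 1770 and 1380 CPM with vesicles. Rpe65 was at 29.4, 66 and 194 CPM with PBS and 97.9, 218 and 225 CPM with vesicles. Rlbp1, which Muller glia also express, shared this order, at 452, 624 and 637 CPM with PBS and lowest with vesicles in library 1. It was at most 474 CPM with vesicles. The remaining markers did not share this order. Pmel and Tyr were lowest among the vesicle libraries in library 3, Best1 was at most 1.33 CPM, and Mitf lay between 6 and 10.9 CPM. The 9 markers together summed to 733 to 2040 CPM with PBS and 1270 to 2830 CPM with vesicles, 0 of the 9 was called by edgeR, and their part in the Trf values was not tested. In the cultures, where Ttr was at most 0.239 CPM, Trf was at 6.25, 6.15 and 5.13 CPM with PBS and 6.59, 7.03 and 7.62 CPM with vesicles. Those groups did not overlap, and the log2 fold change of 0.28 ± 0.15 was not called (adjusted p = 0.22).

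Tfrc (ENSMUSG00000022797), the transferrin receptor, gave negative estimates in both tables without a call. In the retina it was at 330, 283 and 275 CPM with PBS and 261, 242 and 239 CPM with vesicles, which did not overlap. The log2 fold change was -0.26 ± 0.10 (95% interval -0.48 to -0.03, adjusted p = 0.11). In the cultures it was at 101, 98.8 and 97.1 CPM with PBS and 99.8, 81.4 and 88.6 CPM with vesicles. There 1 vesicle library lay among the PBS libraries, and the log2 fold change was -0.14 ± 0.07 (adjusted p = 0.18). Without vesicle replicate 1 it was -0.22 and called lower (adjusted p = 0.00605), and with library totals only it was -0.19 (adjusted p = 0.0482). The Fth1 hairpin acts on translation, so a ratio of mRNA levels does not read out its action. The Tfrc hairpins act on mRNA decay, and their part in the Tfrc levels was not tested. The ratio of Fth1 to Tfrc CPM was 1.07, 1.27 and 1.84 with PBS and 3.34, 4.21 and 2.91 with vesicles in the retina. In the cultures it was 26.4, 27.4 and 28.3 with PBS and 35.6, 42.2 and 37.7 with vesicles. Vesicle libraries lay above all PBS libraries in both tables (2-sided exact permutation p = 0.1 in each, the smallest possible). As this ratio also rests on the Fth1 values, it is no separate support.

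Steap4 (ENSMUSG00000012428) encodes a membrane metalloreductase that turns ferric into ferrous iron and is known as an inflammation-induced gene. In the retina it was at 2.94, 2.43 and 5.11 CPM with PBS and 153, 179 and 90.7 CPM with vesicles. The lowest vesicle library was far above the highest PBS library. The log2 fold change of 5.33 ± 0.41 (95% interval 4.32 to 6.33, adjusted p = 0.001), 40.2-fold, exceeded that of the other 9 genes. Culture libraries held Steap4 at 189, 186 and 196 CPM with PBS and 781, 822 and 821 CPM with vesicles. The spread within groups was small, and the rise of 2.09 ± 0.06 on the log2 scale (4.24-fold, adjusted p = 7.8e-17) was also above that of the other 9 genes in that table.

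Slc11a1 (ENSMUSG00000026177), the phagosomal metal transporter NRAMP1 of macrophages and neutrophils, had 17, 9 and 28 counts in the retina PBS libraries and 248, 306 and 185 counts in the vesicle libraries. In CPM these were 1.11, 0.547 and 1.68 against 15.8, 19.3 and 11.4, with no overlap. The log2 fold change was 3.79 ± 0.37 (95% interval 2.95 to 4.63, adjusted p = 0.00033), 13.8-fold. Markers of leukocytes moved in the same libraries. Monocyte and macrophage markers summed to 52.5 to 81.7 CPM with PBS and 727 to 1050 CPM with vesicles, with 10 of 10 called higher. Neutrophil markers summed to 16.8 to 30.5 CPM with PBS and 405 to 862 CPM with vesicles, with 8 of 8 called higher. Homeostatic microglia markers summed to 85.5 to 91.3 CPM with PBS and 74.8 to 81.6 CPM with vesicles. The part of these cells in the retina values of Slc11a1, Hmox1, Fth1, Steap4 and Cp was not tested. Culture libraries held Slc11a1 at 1.35, 1.13 and 1.70 CPM with PBS and 2.45, 1.07 and 1.48 CPM with vesicles, which overlapped (log2 fold change 0.25 ± 0.34, 95% interval -0.46 to 0.96, adjusted p = 0.70). Of the leukocyte markers there, Ccr2, S100a9, Retnlg and Cxcr2 were at 0 in every library. Monocyte and macrophage markers summed to 93.1 to 98.0 CPM with PBS and 125 to 183 CPM with vesicles, with 3 of 8 tested called higher, and neutrophil markers to at most 4.36 CPM.

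**Figure D2:**
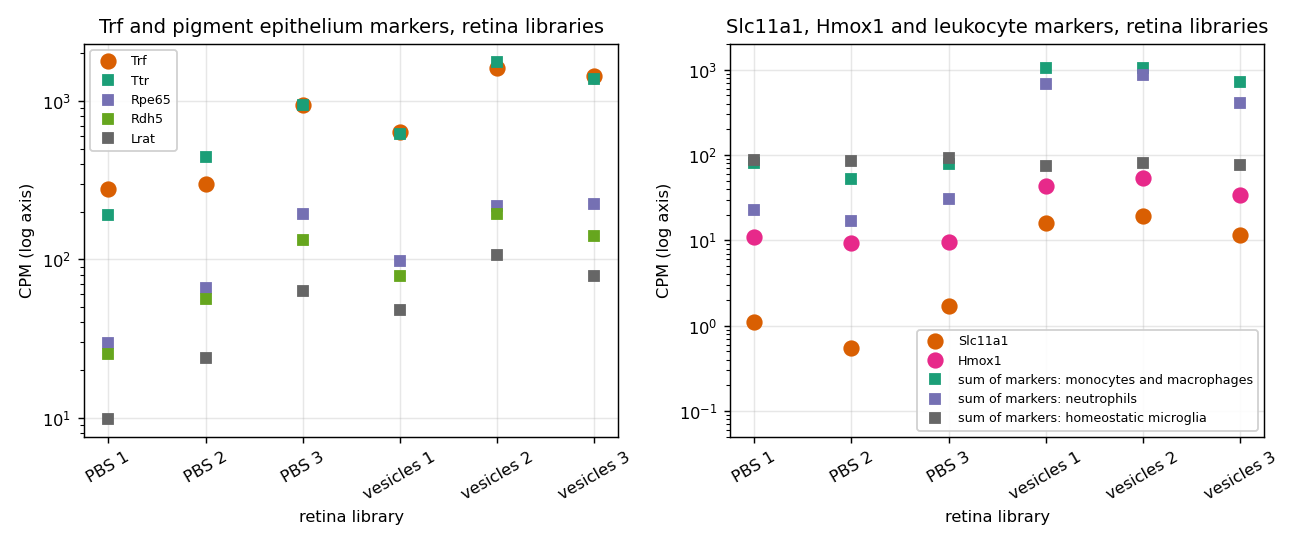
CPM on a log axis in each of the 6 retina libraries, for Trf beside the pigment epithelium markers Ttr, Rpe65, Rdh5 and Lrat (left), and for Slc11a1 and Hmox1 beside the summed leukocyte and microglia markers (right). Trf is high in PBS library 3 (939 CPM), as Ttr is (946 CPM), while Slc11a1 and the summed monocyte and neutrophil markers are higher in all 3 vesicle libraries than in the PBS libraries.

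Slc11a2 (ENSMUSG00000023030), the divalent metal transporter DMT1, carries ferrous iron out of endosomes. It rose in the pericyte-labelled cells from 60.9, 60.8 and 62.2 CPM to 95.8, 105 and 103 CPM. The groups were far apart, 1.65-fold (log2 fold change 0.72 ± 0.06, adjusted p = 1.2e-08). In the retina it was at 25.1, 29.0 and 25.0 CPM with PBS and 35.1, 41.0 and 29.0 CPM with vesicles. The nearest libraries of the 2 groups were equal to 3 digits, and the log2 fold change of 0.41 ± 0.14 was not called (adjusted p = 0.085). Without vesicle library 3 it was 0.53 and called (adjusted p = 0.0262).

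Slc40a1 (ENSMUSG00000025993), ferroportin, the iron exporter, was scarce. It was at 4.18, 2.86 and 3.79 CPM with PBS and 5.73, 6.13 and 3.21 CPM with vesicles in the retina, where the groups overlapped (log2 fold change 0.48 ± 0.31, 95% interval -0.21 to 1.17, adjusted p = 0.33). Culture libraries had 33, 20 and 37 counts with PBS and 16, 24 and 19 counts with vesicles. That was under 1 CPM in each library, and the log2 fold change of -0.57 ± 0.46 (95% interval -1.54 to 0.40, adjusted p = 0.47) was not called.

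Cp (ENSMUSG00000003617), ceruloplasmin, is the copper ferroxidase that oxidises iron leaving the cell and is an acute-phase protein. In the retina it was at 459, 335 and 289 CPM with PBS and 1557, 1671 and 1126 CPM with vesicles. The groups were well apart, and the log2 fold change was 2.01 ± 0.21 (95% interval 1.51 to 2.50, adjusted p = 0.00096), 4.02-fold. It rose in the cultures from 885, 865 and 826 CPM to 1607, 1434 and 1521 CPM (1.77-fold, log2 fold change 0.82 ± 0.06, adjusted p = 1.1e-09), again without overlap. Cp thus rose in both tables. Slc40a1, the exporter that it serves, was not called in either, but its wide intervals do not exclude a change. The effects on Cp and Slc40a1 were not compared. Heph, the related membrane ferroxidase hephaestin, went from 11.3 ± 1.55 to 13.1 ± 4.29 CPM in the retina (adjusted p = 0.57) and from 2.13 ± 0.61 to 1.60 ± 0.14 CPM in the cultures (adjusted p = 0.38).

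**Figure D3:**
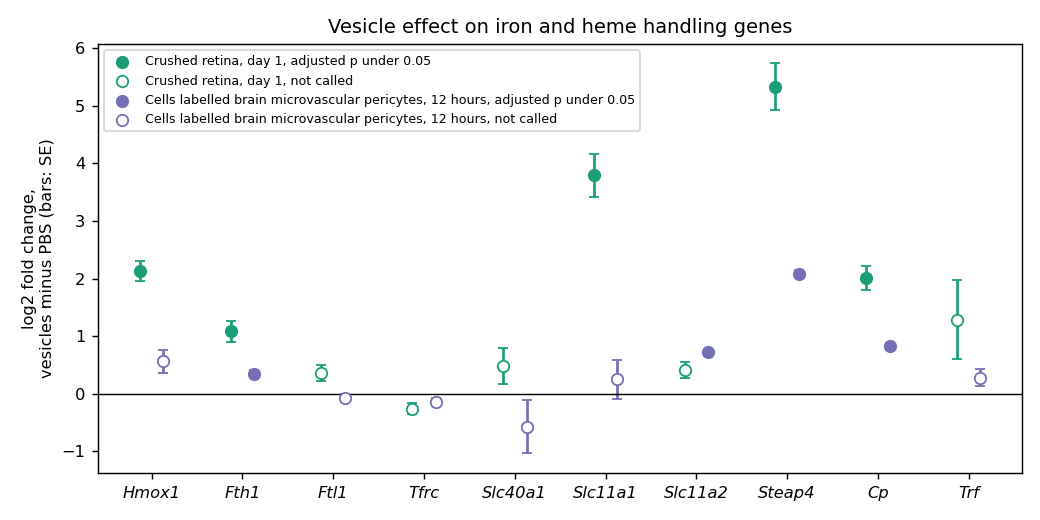
Log2 fold change (vesicles minus PBS) of each of the 10 genes on the vertical axis, with bars of 1 SE, in the crushed retina (green) and the pericyte-labelled cells (purple), filled where the adjusted p was under 0.05. Steap4 lies highest in both (5.33 and 2.09), and the longest bar is that of Trf in the retina (SE 0.69).

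The vesicle effect was then compared between the tables with limma, in a joint fit with an interaction term over 13712 genes, of which 12.1% differed at an adjusted p under 0.05. Of the 10 genes 5 differed, each with the larger log2 fold change in the retina. Retina minus pericyte-labelled cells, the difference in log2 fold change was 3.69 for Slc11a1 (95% interval 2.45 to 4.94, adjusted p = 0.000455) and 3.25 for Steap4 (2.02 to 4.48, adjusted p = 0.00323). It was 1.19 for Cp (0.73 to 1.65, adjusted p = 0.00285), 1.53 for Hmox1 (0.62 to 2.43, adjusted p = 0.0342) and 0.74 for Fth1 (0.37 to 1.12, adjusted p = 0.0114). Without the lens-richest retina libraries the differences of Hmox1 (1.45, adjusted p = 0.132) and Fth1 (0.54, adjusted p = 0.0536) were not called. Slc11a2, called only in the cultures, did not differ by this test (-0.32, 95% interval -0.64 to 0.00, adjusted p = 0.188), nor did Ftl1 (0.41, adjusted p = 0.0944), Slc40a1 (0.99, adjusted p = 0.207), Trf (1.13, adjusted p = 0.532) or Tfrc (-0.11, adjusted p = 0.637). Tissue, time, injury and table all differ between the 2 comparisons and cannot be told apart.

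Levels were next set on a per-length scale, CPM per kilobase of the main GENCODE transcript, so that genes could be ordered. In the retina with PBS, Ftl1 (526) and Fth1 (437) stood highest and their library ranges overlapped, followed by Trf (197), Cp (88.3), Tfrc (60.5), Slc11a2 (8.71), Hmox1 (6.41), Steap4 (1.11), Slc40a1 (1.07) and Slc11a1 (0.481). The ranges of Trf and Cp overlapped there, as did those of Steap4 and Slc40a1. With vesicles the retina order was Fth1 (929), Ftl1 (673), Trf (479), Cp (355), Tfrc (50.6), Steap4 (44.7), Hmox1 (28.0), Slc11a2 (11.6), Slc11a1 (6.70) and Slc40a1 (1.49), so ferroportin was the lowest of the 10. Ranges of neighbours from Fth1 down to Cp overlapped, as did those from Tfrc down to Hmox1. In the pericyte-labelled cells with PBS the order was Fth1 (2910), Ftl1 (349), Cp (210), Hmox1 (130), Steap4 (60.3), Slc11a2 (20.3), Tfrc (20.2), Trf (2.27), Slc11a1 (0.602) and Slc40a1 (0.242), where only Slc11a2 and Tfrc overlapped among neighbours. With vesicles Cp (372), Ftl1 (332), Steap4 (256) and Hmox1 (192) followed Fth1 (3710), and of these Cp and Ftl1 overlapped. With the union of all exons as length, Fth1 moved from the first to the third place in the retina with vesicles and Cp from the second to the fifth in the cultures with vesicles, so the order of the abundant genes depends on the length used.

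The wider machinery was read from a list of 66 further genes in 7 functional groups. In the retina 57 were tested, and 10 were called higher and 1 lower (19.3%, beside 15.9% of all genes), with a median log2 fold change of 0.05. In the pericyte-labelled cells 58 were tested, with 9 higher and 5 lower (24.1%, beside 19.8%), and a median of 0.02. Both shares lie near those over all genes.

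Among 11 tested genes of iron uptake and reduction, 3 were higher and 0 lower in the retina (5 and 0 at an unadjusted p under 0.05, 4 and 0 by DESeq2). Lcn2, a secreted protein that binds bacterial iron carriers, rose from 64.2 ± 9.59 to 2040 ± 428 CPM (log2 fold change 4.99 ± 0.20). Scara5, a ferritin receptor, rose from 1.06 ± 0.43 to 4.21 ± 0.53 CPM (1.97 ± 0.36, adjusted p = 0.0057). Slc39a14, the zinc and iron transporter ZIP14, rose from 11.8 ± 1.62 to 18.8 ± 4.14 CPM (0.68 ± 0.19, adjusted p = 0.037), a call lost in 5 of 12 alternatives. In the cultures 3 of 11 were higher and 2 lower. Lcn2 went from 1.38 ± 0.40 to 118 ± 5.61 CPM (6.42 ± 0.12) and Slc39a14 from 63.7 ± 5.23 to 87.9 ± 5.86 CPM (0.47 ± 0.07, adjusted p = 4.3e-05). Both lower genes encode ferric reductases. Steap3, the endosomal reductase of the same family as Steap4, fell from 27.2 ± 0.75 to 16.1 ± 1.42 CPM (-0.76 ± 0.09, adjusted p = 3e-06). Cybrd1, the membrane reductase Dcytb, fell from 19.9 ± 1.22 to 13.6 ± 1.31 CPM (-0.54 ± 0.10, adjusted p = 0.00057). Steap4 thus rose in the culture libraries in which Steap3 and Cybrd1 fell.

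Of the heme breakdown, transport and scavenging genes, 3 of 12 were higher and 0 lower in the retina (6 and 1 unadjusted, 4 and 0 by DESeq2), and 4 of 13 were higher and 1 lower in the cultures. Hp, haptoglobin, which binds free haemoglobin, was at 0.522, 0.122 and 1.38 CPM with PBS and 54.9, 50.5 and 32.1 CPM with vesicles in the retina, a rise of 6.06 ± 0.58 on the log2 scale (adjusted p = 0.0019, lost in 1 of 12 alternatives at 0.0538). In the cultures it rose from 4.83 ± 0.61 to 8.19 ± 1.08 CPM (0.76 ± 0.16, adjusted p = 0.0011). Hpx, hemopexin, the plasma carrier of free heme, rose in the cultures from 0.328 ± 0.21 to 2.69 ± 0.62 CPM (3.02 ± 0.42, adjusted p = 1.4e-05) and was too low to be tested in the retina. Haemoglobin and other erythroid markers summed to 49.1 to 79.5 CPM with PBS and 51.1 to 68.4 CPM with vesicles in the retina, with 0 of 5 tested called by edgeR, and to at most 0.594 CPM in the cultures. The transcription factors that act in opposite ways on Hmox1 were both higher in both tables. Nfe2l2, the activator NRF2, had log2 fold changes of 0.66 ± 0.15 in the retina (adjusted p = 0.02) and 0.30 ± 0.07 in the cultures (adjusted p = 0.003). Bach1, the heme-sensing repressor, had 0.68 ± 0.14 in the retina (adjusted p = 0.011) and 0.39 in the cultures (adjusted p = 0.012). In the retina the calls were lost in 4 of 12 alternatives for Nfe2l2 and in 2 of 12 for Bach1.

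Of 14 genes of mitochondrial iron and iron-sulphur clusters, 3 were higher and 1 lower in the retina, and 2 were higher and 0 lower in the cultures (3 and 0 unadjusted, 2 and 0 by DESeq2). Slc25a37, mitoferrin 1, which carries iron into the mitochondrion, rose from 27.7 ± 5.31 to 72.2 ± 14.6 CPM in the retina (1.38 ± 0.19, adjusted p = 0.0022) and from 49.6 ± 7.99 to 69.2 ± 2.87 CPM in the cultures (0.48 ± 0.09, adjusted p = 0.00032). Cisd3, an iron-sulphur protein, fell in the retina from 83.2 ± 6.71 to 56.2 ± 6.19 CPM (-0.57 ± 0.11, adjusted p = 0.0078). Iscu, the cluster scaffold, was called higher in both tables, calls lost in 7 of 12 alternatives in the retina and in 6 of 12 in the cultures. Alas1, which starts heme synthesis, was higher in the retina (0.56 ± 0.15, adjusted p = 0.034) and lower in the cultures (-0.20 ± 0.06, adjusted p = 0.022), calls lost in 5 of 12 retina alternatives (0.37, adjusted p = 0.142 without the lens-richest libraries) and in 3 of 12 culture alternatives (adjusted p up to 0.123). It was the only called gene of heme synthesis among the 9 and 8 tested, with no gene lower in the retina and none higher in the cultures. At an unadjusted p under 0.05 the retina count was 2 higher and 1 lower and the culture count 0 and 1, and DESeq2 gave 2 and 0, and 0 and 1. The difference between the 2 effects on Alas1 was 0.75 (adjusted p = 0.00338 in the joint limma fit).

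The remaining groups held few calls. Of the 3 tested genes of storage and iron chaperones and the 2 of export, oxidation and hepcidin, edgeR and DESeq2 called 0 in either table, and at an unadjusted p under 0.05 only Pcbp2 was lower, in the retina. Hamp, hepcidin, the hormone that removes ferroportin from the membrane, stood in the retina at 1.34 ± 0.26 CPM under PBS and 1.03 ± 0.23 CPM under vesicles (adjusted p = 0.53) and at most 0.0298 CPM in the cultures. Of the iron-sensing genes, 0 of 6 were called in the retina by either tool, with Fbxl5 higher at an unadjusted p under 0.05, and 1 of 7 was called in the cultures. That gene was Bmp6, a ligand that induces hepcidin, which fell by 0.25 on the log2 scale (adjusted p = 0.028, lost in 4 of 12 alternatives). In the joint fit, 8 of the 54 wider genes tested in both tables differed, 7 with the larger value in the retina, and Lcn2 was the only one with the larger value in the cultures (-1.47, adjusted p = 0.00839).

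**Figure D4:**
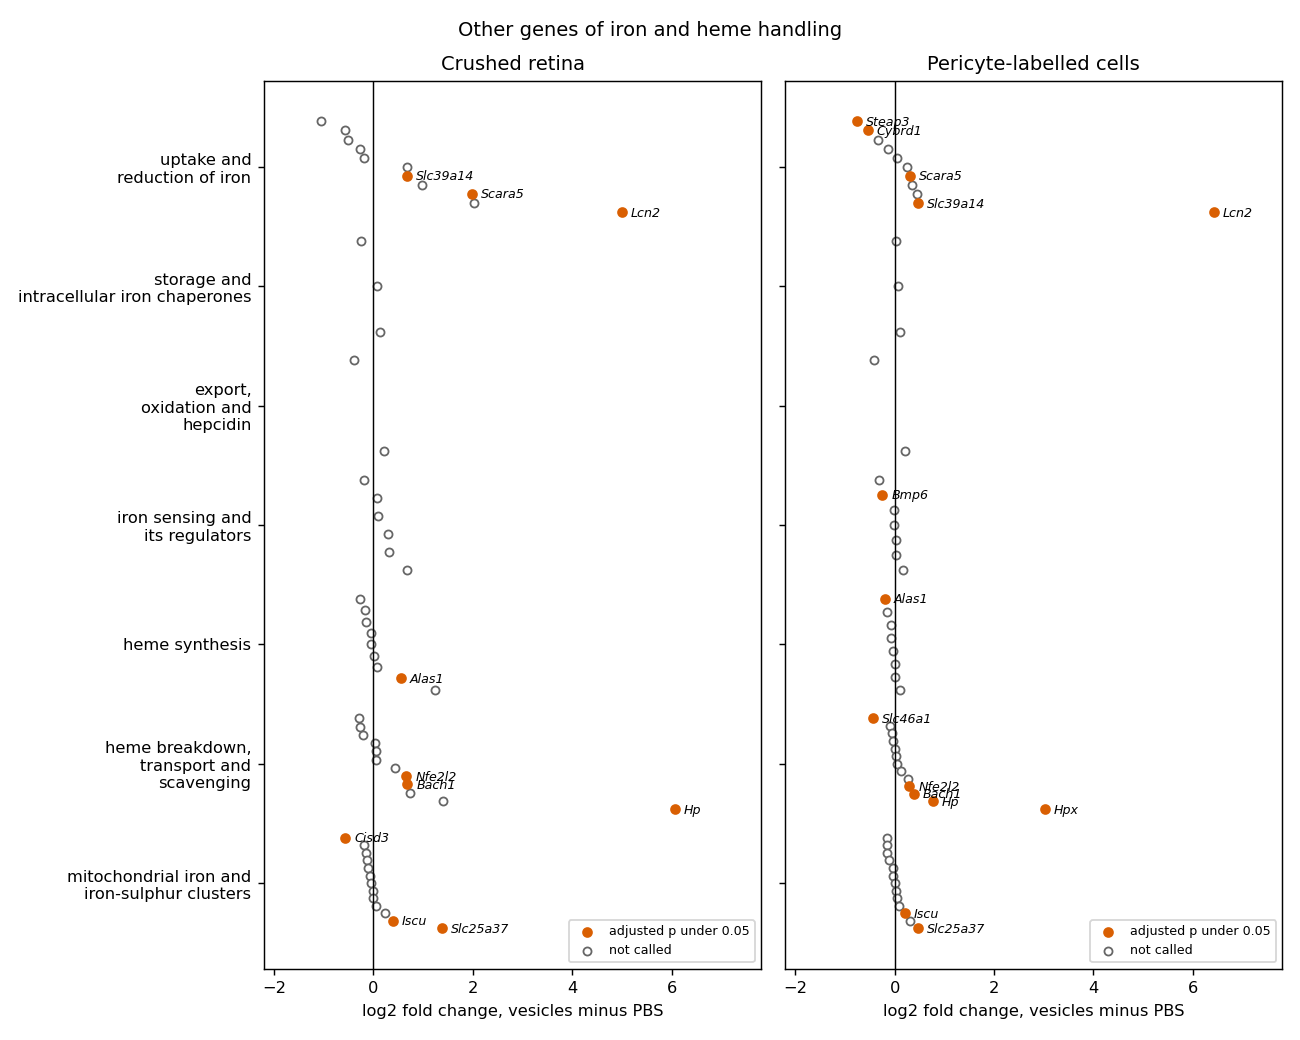
Log2 fold change (vesicles minus PBS) of the tested genes of the wider iron and heme list that are reported, by functional group, in the crushed retina (left) and the pericyte-labelled cells (right), with called genes filled and named. Lcn2 and Hp lie furthest to the right in the retina (4.99 and 6.06), and Lcn2 and Hpx in the cultures (6.42 and 3.02).

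Because Steap4, Cp and Fth1 were called in both tables, the RefSeq promoter windows (GRCm38.p6) were searched on both strands, over the 250 bases before the start. Of the 10 genes 6 had a window, 9 windows in all, and Hmox1, Slc40a1, Slc11a2 and Trf had none. The C/EBP motif TTGCNNAA was found in Cp, Steap4 and Fth1 and in 9.56% of all 32851 windows. An NF-kB motif, GGGA and CC with 4 bases of any kind between them, was found in the same 3 genes and in 17.6% of windows. Its second form, which starts with GGGG in place of GGGA and can overlap the first on the other strand, was found in Steap4, Ftl1 and Tfrc (16.3% of windows), the STAT motif TTCNNNGAA in Steap4 (7.02%) and the hypoxia response element ACGTG in Tfrc (16.6%). The antioxidant response element TGACNNNGC (10.2% of windows), the E-box CACGTG (6.02%), which contains the hypoxia motif, and the AP-1 motif TGACTCA (4.46%) were in none of the 9 windows of those 6 genes, a search that does not cover Hmox1. The Steap4 window is printed because Steap4 had the largest change of the 10 in both tables and the most motif matches. It spans chr5:7960222-7960471 on the plus strand, with matches in capitals. In order they are a match to both NF-kB forms 250 bases before the start, the second form at 226, STAT at 116, C/EBP at 87 and NF-kB at 73. A match describes these letters only and is no evidence of binding.
Steap4: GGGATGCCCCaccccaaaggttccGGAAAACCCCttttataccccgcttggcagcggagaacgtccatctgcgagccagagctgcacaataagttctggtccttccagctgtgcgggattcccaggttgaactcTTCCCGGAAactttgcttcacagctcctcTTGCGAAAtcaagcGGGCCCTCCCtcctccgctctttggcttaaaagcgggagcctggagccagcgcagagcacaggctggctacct

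The genes whose levels followed Hmox1 most closely over the 6 libraries of each table were ranked by Pearson's r of log2 CPM, as a description only, since the libraries share the treatment and a ranking over 9381 and 10096 genes picks high values. In the retina they were Rnd3 (r = 0.9996), Chil1 (r = 0.9982) and Ctsc (r = 0.9982), and in the pericyte-labelled cells Pex19 (r = 0.9973), Ccdc80 (r = 0.9931) and Ereg (r = 0.9903). None of the other 9 iron and heme genes was among the 3 in either table. With so few of the 9381 and 10096 genes named, this does not show whether those 9 followed Hmox1. Slc11a1 and Slc40a1 in both tables, and Trf in the cultures, were too scarce to be ranked.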

How the data were processed

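Raw counts per gene were deposited by the authors in separate tables for retina and pericyte-labelled samples. Per the labels, Trizol served for RNA extraction and the NEBNext Ultra RNA kit for library preparation. Per the submitters' processing notes the tools were FastQC 0.11.8, HISAT2 2.0.5, featureCounts 1.5.0-p3 and limma. The genome build and strand setting are not given in the sources used here. C3H10T1/2 knockdowns named in the series text fit no sample here.

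Each table was fitted alone in R 4.3.3 with edgeR 4.0.16 (filterByExpr with a minimum count of 10, TMM, robust quasi-likelihood F test, 2-sided, Benjamini-Hochberg over all tested genes, called at 0.05), and each SE is the absolute log2 fold change over sqrt(F). Differences between tables used limma 3.58.1 with voom and sample weights over the genes tested in both. Alternatives used DESeq2 1.42.0, other scalings, no filter, no robust estimation, a replicate block and libraries left out. On simulated counts the fit recovered 70% of genes planted at a log2 fold change of 1 in the retina comparison (15442 genes) and 88% in the culture comparison (16846 genes). Each comparison also gave 8 false calls. Changes were planted only above a minimum mean count, with the spread taken from the fitted trend. These rates therefore do not cover genes with fewer counts or with a spread above the trend, such as Trf in the retina.

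The 10 genes, the wider list and the marker lists were chosen with earlier results of these data known. All 10 are reported, and of the wider list called genes were named, up to 4 per functional group in order of p. The counts cover the whole list, of which 1 gene is not reported here. Pcbp2, Fbxl5, Heph, Hamp and Hmox2 were named after their values were seen. For Hmox1, the 3 most alike genes with a mean of at least 10 CPM were named. No 2 libraries were copies, since chi-squared values within a group were at least 6.12 per degree of freedom. Counting limits cover counting error only.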

Additional observations from a re-analysis of the deposited data

Results flagged for a closer look

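The vesicle effect differed between the retina and the pericyte-labelled cells for 5 of the 10 genes by the interaction test of limma, adjusted over 13712 genes. The differences in log2 fold change, retina minus pericyte-labelled cells, were 3.69 for Slc11a1, 3.25 for Steap4, 1.53 for Hmox1, 1.19 for Cp and 0.74 for Fth1. In each case the 3 retina vesicle libraries lay above the 3 retina PBS libraries. As the 5 genes were listed because that test called them, their separation is no further support. Of the 5 genes, only Slc11a1 had groups that overlapped in the pericyte-labelled cells. The share of all genes with separated groups was not counted in either table, so these counts are no result about the 5 genes.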

How the results depend on the processing

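Hmox1, Slc11a1, Steap4 and Cp in the retina and Fth1, Slc11a2, Steap4 and Cp in the pericyte-labelled cells kept their direction and call in all 12 alternatives of each table. Across alternatives 4 to 7 of the 10 genes were called in the retina and 4 to 5 in the cultures. With 1 retina library left out, the genes called numbered 1328 to 2909 (main 2449), and the wider-list genes 6 to 13 (main 11). The low values came without PBS library 2 (1328 and 7), vesicle library 1 (1401 and 6) or vesicle library 2 (1381 and 7). Without the lens-richest library of each group, 1420 genes were called, and the difference between tables was 1.45 for Hmox1 (adjusted p = 0.132) and 0.54 for Fth1 (adjusted p = 0.0536). Uncalled culture estimates reversed for Ftl1 without PBS replicate 1 (6e-04, in a leave-one-out range from -0.14) and for Slc11a1 without vesicle replicate 1 (-0.13, in a range up to 0.48). The cause of these changes was not tested, beyond the fewer samples that each fit had. Over all tested genes, same-numbered culture replicates did not deviate together (r = 0.0321, 0.0171 and -0.0219). That gives no sign of pairing by number but cannot exclude it, since an r over all genes may be mostly noise. Hmox1 was highest in replicate 1 of both culture groups. With the replicate block, 3287 genes, 5 of the 10 genes and 16 wider-list genes were called, and Hmox1 in the cultures was called (0.58, adjusted p = 1.75e-07). Numbers in the retina column names could not be tied to the replicate numbers of the labels, so no block was fitted there. Counts were lowest, and counting precision poorest, for Slc40a1 in the cultures (16 to 37 per library) and Slc11a1 in the retina with PBS (9 to 28).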
